A study of Mus musculus with 2 samples.

Results

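The cytosolic ribosomal protein genes encode the proteins of the 40S and 60S subunits, the machine that translates every cytosolic mRNA. Members were taken by symbol: Rpl or Rps followed by a number with optional letter endings, plus Rplp0, Rplp1, Rplp2 and Rpsa, without the Rps6 kinases and without symbols ending in -ps and a number. This gave 82 of the 28692 genes of the matrix, of which 31 belonged to the 40S subunit, 48 to the 60S subunit and 3 to the stalk, the flexible arm of the large subunit that recruits translation factors. Of the 82, 76 were core genes and 6 were counted as paralogs (Rpl3l, Rpl10l, Rpl39l, Rps27l, Rpl36al and Rpl6l), of which Rpl6l is annotated as a processed pseudogene. A member with at least 30 unique molecular identifiers (UMIs) was counted as measured, and 79 of the 82 were.

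The cells were neural stem cell cultures derived from the C57/Bl6J mouse subventricular zone, a strip along the lateral ventricles that goes on making neurons and glia after birth. One library was labelled as treated with 1 µM 20HC, an oxysterol per the series' title, and 1 library as the control, which received DMSO vehicle per the design text; the treatment field of the control library also names 20HC. Both groups were sequenced 3 days after EGF and FGF, the growth factors that keep such cells dividing, were withdrawn. Barcodes in the deposited matrix ended in 1 or 2, and neither number could be tied to a label, so no comparison of 20HC with control was made. The 10787 barcodes ending in 1 and the 3898 ending in 2 are given below as barcode set 1 and barcode set 2, and they shared 48 barcode sequences.

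A ribosome holds 1 copy of almost every ribosomal protein. Most of the mRNAs of these proteins begin with a run of pyrimidines called a 5′ terminal oligopyrimidine (TOP) tract, through which the growth-signalling kinase mTOR and the RNA-binding protein Larp1 control their translation. In the subventricular zone, quiescent stem cells are known for low protein synthesis and activated progenitors for high protein synthesis. The transcripts measured here give mRNA levels and not translation.

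After filtering, 12975 cells remained, with a median of 2839 UMIs per cell. Cells formed 12 clusters. Marker genes named 10 of them, in 8 classes, and 2 stayed unnamed: a cluster of 508 cells with Lgals1 among its leading genes (the Lgals1 cluster, median 1099 UMIs per cell) and a cluster of 326 cells led by the hypoxia-response gene Car9. Classes of more than 200 cells were astrocyte-like (6835 cells), cycling-like (2081), neuroblast-like (1495), progenitor-like (667), OPC-like, meaning like oligodendrocyte precursor cells (661), and fibroblast-like (216). The 10 leading genes of the fibroblast-like cluster held 4 fibroblast markers and 2 markers of pericytes (Acta2 and Vtn). None of the 82 members was among the 2000 genes that shaped the clusters. There were no replicates, so no difference was tested; the 95% intervals given reflect counting error alone. Levels are UMIs of a gene per 1e+06 UMIs of a class (CPM). The kit counts each captured transcript once near its 3′ end, so CPM were compared between genes without division by length.

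Promoter sequences of 4 members are shown because these genes stood at the 2 ends of the class differences described below: Rpsa and Rps6 were the most lowered members in astrocyte-like cells and Rpl38 and Rps21 the least. Each runs from 100 bases before to 20 bases after the RefSeq start of transcription (GRCm38.p6), 5′ to 3′ along the gene. Capitals mark CCGGAAG (the core of ETS and GABP sites), GGGCGG on either strand (GC boxes, bound by SP1) and, around the start, a C followed by 5 pyrimidines, which overlaps the GC box in Rps21. They lie at chr9:120127666-120127785 (plus strand), chr4:86857348-86857467 (minus), chr11:114668480-114668599 (plus) and chr2:180257279-180257398 (plus, the upstream of 2 listed starts).
Rpsa: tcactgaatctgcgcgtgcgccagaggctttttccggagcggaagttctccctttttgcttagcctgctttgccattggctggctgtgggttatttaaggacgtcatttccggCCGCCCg
Rps6: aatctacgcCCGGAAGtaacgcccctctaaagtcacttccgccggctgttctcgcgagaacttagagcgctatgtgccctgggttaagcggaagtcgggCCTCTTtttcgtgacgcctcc
Rpl38: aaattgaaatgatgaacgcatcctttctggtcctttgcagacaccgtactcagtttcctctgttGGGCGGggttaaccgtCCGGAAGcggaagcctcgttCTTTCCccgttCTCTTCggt
Rps21: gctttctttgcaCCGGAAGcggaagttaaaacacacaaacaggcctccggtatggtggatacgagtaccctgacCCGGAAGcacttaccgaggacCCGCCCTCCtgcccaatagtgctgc

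These letters were searched in 300 bases around each listed start, from 250 before to 50 after. The RefSeq promoter table held 73 promoters of 61 members among 32851 promoters of 27025 genes. CCGGAAG on either strand was found for 41.0% of the 61 members and 9.93% of all genes in the table. GGGCGG on either strand was found for 60.7% of members and 38.2% of all genes, and AAGATGG, the core of YY1 sites, for 14.8% and 7.28%. The TATA box TATAAA was found for 9.84% of members and 15.7% of all genes. Within 30 bases either side of the start, a C followed by 5 pyrimidines stood on the transcribed strand for 73.8% of members and 43.8% of all genes. The 4 promoters shown do not separate by these letters: CCGGAAG was present in the printed stretch of Rps6, Rpl38 and Rps21, and the pyrimidine run near the start in the same 3. In the GENCODE M21 annotation the Rpsa gene begins at chr9:120127689, upstream of the RefSeq start used here. Near that position the printed stretch holds ctttttcc in lower case. The missing run in Rpsa thus depends on the start used. At the other listed start of Rps21, the same search marked CCGGAAG but no pyrimidine run near the start. A match of letters is a description of the sequence and not a binding site.

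Members also shared gene structure. They were spread over 19 chromosomes. Their median transcript length in the GENCODE M21 annotation was 731.5 bases with a median coding length of 454.5 bases, against 2249 and 1173 bases over protein-coding genes. Of the 82 members, 29 (35.4%) held a small nucleolar RNA (snoRNA) gene within their bounds, 56 in all, against 259 of 21951 protein-coding genes (1.18%). SnoRNAs guide the chemical modification of ribosomal RNA. Rpl4, a 60S gene, held 5 of them, more than any other member.

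Ribosomal protein mRNAs made up 15.3% of all UMIs of the kept cells, 15.3% in barcode set 1 and 15.2% in set 2. The 40S genes gave 6.45%, the 60S genes 8.19% and the stalk genes 0.661% of UMIs. Of the 100 genes with most UMIs, 50 were members. The 5 with most UMIs were Rpl32 (3896 CPM), Rpl41 (3882 CPM), Rps19 (3868 CPM), Rpl13a (3772 CPM) and Rps14 (3771 CPM), which together held 12.5% of the member UMIs. Rpl41 is the smallest ribosomal protein, and RPS19 is the gene most often mutated in the human anaemia named after Diamond and Blackfan. The median core gene stood at 1986 CPM, and 65 of the 76 core genes exceeded 1000 CPM.

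The 5 detected members with fewest UMIs were Rpl3l, Rpl39l, Rpl29, Rpl6l and Rpl35, and 1 member was not detected. Rpl3l, the striated-muscle form of Rpl3, had 2 UMIs, 1 of them in an astrocyte-like cell. Rpl39l, known as a testis-enriched form of Rpl39, had 5 UMIs, 4 of them in fibroblast-like cells (4.24 CPM) and 1 in a microglia-like cell. The testis-expressed Rpl10l was the one not detected, with 0 UMIs in 38111061, and a count of 0 allows up to 3. Rpl29, a core 60S gene, had 651 UMIs (17.1 CPM), and Rpl6l, annotated as a processed pseudogene, had 865 UMIs (22.7 CPM). Rpl35, a core 60S gene, had 10319 UMIs (271 CPM). The low level of Rpl29 stood beside a row with nearly its sequence: Gm10709, a processed pseudogene whose 480-base transcript was 99.2% identical to Rpl29, carried 267 CPM.

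Cell classes differed in how much of their mRNA was ribosomal protein mRNA, and astrocyte-like cells were the lowest of the 6 main classes. The share was 21.9% (interval 21.8 to 22.0%) in fibroblast-like, 21.5% (21.4 to 21.6%) in progenitor-like, 20.3% (20.2 to 20.3%) in OPC-like, 20.1% (20.1 to 20.2%) in neuroblast-like, 18.7% (18.7 to 18.8%) in cycling-like and 11.8% (11.8 to 11.9%) in astrocyte-like cells. Astrocyte-like cells thus held 11.8% against 19.5% in all other kept cells. Barcode set 1 gave 11.9% and set 2 11.8% in astrocyte-like cells, and the lowest share of the other 5 classes was 18.7% in set 1 and 18.9% in set 2, both in cycling-like cells. Fibroblast-like cells ranked highest in set 1 (22.2% against 21.6% in progenitor-like cells) but not in set 2 (20.7% against 21.2%), so the order at the top was not the same in both sets. OPC-like and neuroblast-like cells also changed places, with 20.3% and 20.0% in set 1 and 20.3% and 20.6% in set 2.

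**Figure D1:**
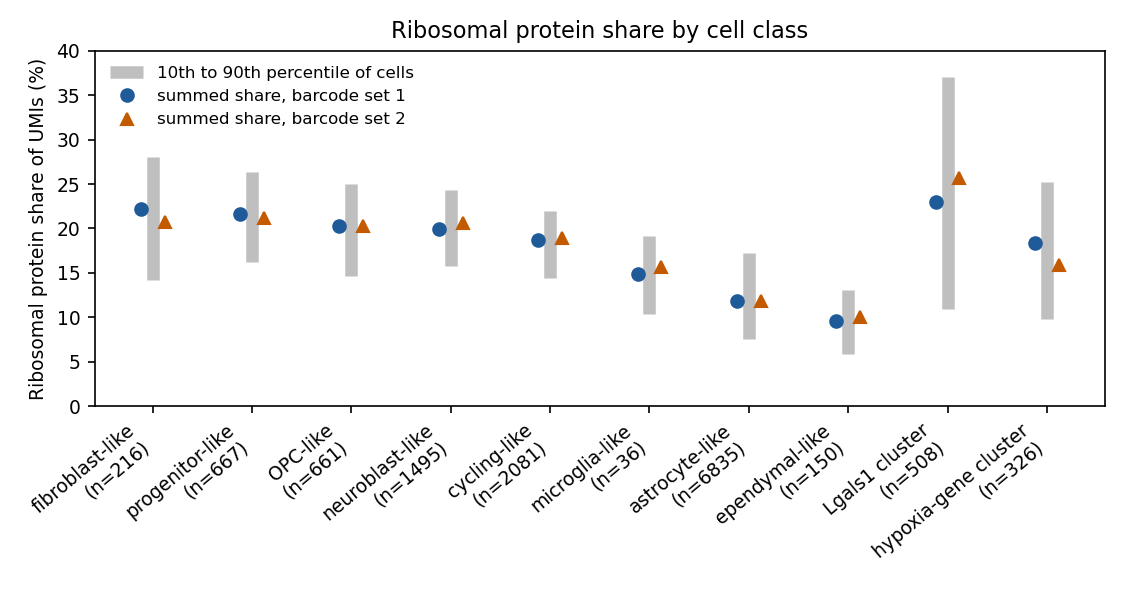
Share of UMIs from ribosomal protein genes (y axis, %) in 8 named classes and 2 unnamed clusters (x axis, n cells), as summed shares of barcode set 1 (circles) and barcode set 2 (triangles); grey bars run from the 10th to the 90th percentile of single cells. Astrocyte-like (11.8%) and ependymal-like cells (9.74%) sit below the other classes in both sets, and the Lgals1 cluster has the widest bar.

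Single cells of the classes overlapped in their tails. The 90th percentile of astrocyte-like cells was 17.3%, against a 10th percentile of 14.4% in cycling-like, 15.7% in neuroblast-like and 16.2% in progenitor-like cells. The median depth was 2986 UMIs in astrocyte-like cells, between 2376 in neuroblast-like and 3121 in cycling-like cells, and the median cell held 337 member UMIs in the astrocyte-like, 469 in the neuroblast-like and 560 in the cycling-like class. Shares also moved with depth within classes. Cycling-like cells held 16.4% under 1500 UMIs (80 cells) and 20.5% at 5000 UMIs or more (138 cells). Fibroblast-like cells held 19.0% at 1500 to 2500 UMIs (21 cells) and 23.2% at 5000 UMIs or more (68 cells). Astrocyte-like cells held 10.3% under 1500 UMIs (502 cells), 12.2% at 2500 to 3500 UMIs (2777 cells) and 11.1% at 5000 UMIs or more (310 cells). With every cell thinned to 1000 UMIs the share was 11.9% in astrocyte-like cells (142 shallower cells left out) and 18.4% in cycling-like cells (18 left out). Mitochondrial UMIs also differed, with a median of 3.78% per cell in astrocyte-like, 3.17% in progenitor-like and 2.30% in OPC-like cells. The median was 2.04% in neuroblast-like, 1.90% in fibroblast-like and 1.84% in cycling-like cells. The part of mitochondrial UMIs in the class differences was not tested. With mitochondrial genes left out of the total, the shares were 12.4% in astrocyte-like and 19.2% in cycling-like cells.

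The astrocyte-like class joined 2 clusters, and both were below the other main classes. The cluster led by Pcp4, Gria1 and Agt (4198 cells) held 11.0% in set 1 and 10.8% in set 2. The cluster led by Cldn10, Gfap and Aldoc, known astrocyte genes (2637 cells), held 13.1% in set 1 and 13.3% in set 2. The name of the first cluster rests on 4 of 11 raised astrocyte markers. Its 10 leading genes held 1 astrocyte marker (Agt), 1 OPC marker (C1ql1) and 1 neuroblast marker (Stmn2).

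Among smaller groups, ependymal-like cells, ciliated cells of the ventricle wall (150 cells), held 9.74% (interval 9.65 to 9.82%), and microglia-like cells (36 cells) held 15.1% (14.9 to 15.3%). The hypoxia-gene cluster held 17.9%. The Lgals1 cluster held 23.2%, but its cells spread from 10.9% at the 10th to 37.0% at the 90th percentile, and within it the share was 18.7% in the 376 cells under 1500 UMIs and 28.9% in the 117 cells of 1500 to 2500 UMIs. This cluster was the shallowest of the 12, and the part of depth in its share was not tested.

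Cells with and without transcripts of division were also set side by side within classes. Cells with a UMI of Mki67, Top2a, Cdk1, Ube2c or Cenpf and cells without one held 12.2% and 11.8% in the astrocyte-like, 20.4% and 20.0% in the OPC-like, 21.8% and 21.4% in the progenitor-like and 19.9% and 20.6% in the neuroblast-like class. In the fibroblast-like class they held 22.2% and 21.6%, with 22.2% and 22.3% in set 1 and 22.5% and 19.3% in set 2. In the cycling-like class they held 18.7% and 20.6%, the second value from 10 cells. Among cells of 2000 to 4000 UMIs the values were 12.4% and 12.1% in astrocyte-like, 22.0% and 21.7% in progenitor-like and 20.2% and 20.3% in OPC-like cells. They were 20.0% and 21.1% in neuroblast-like and 20.4% and 20.7% in fibroblast-like cells, so the sign was not the same in all classes. The 2 cycling-like clusters, led by Cdc20 with Ube2c (mitosis) and by Hist1h1b with Esco2 (DNA replication), held 18.6% and 18.9%.

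The difference between classes ran through the whole gene set. A gene was called when the CPM of a class stood at least 1.5-fold from the CPM of the other kept cells, with the same sign in set 1 and set 2 and a gap beyond the Poisson interval of the class. In astrocyte-like cells 57 of 79 members were called lower and 0 higher, where 19% of the 13025 measured genes were called lower and 35.6% higher. By subunit, 25 of 31 40S, 29 of 45 60S and 3 of 3 stalk members were lower. The median log2 ratio (on CPM + 5) was -0.70 over members and 0.15 over all measured genes, and all 79 members had a ratio below 0. Of the 13025 measured genes, 4981 had a ratio below 0. With no filter on cells the count of lower members was 1 and the median -0.31, and no share over all measured genes is given for that setting. CPM are parts of a whole, so a lower share of members raises the CPM of other genes.

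**Figure D2:**
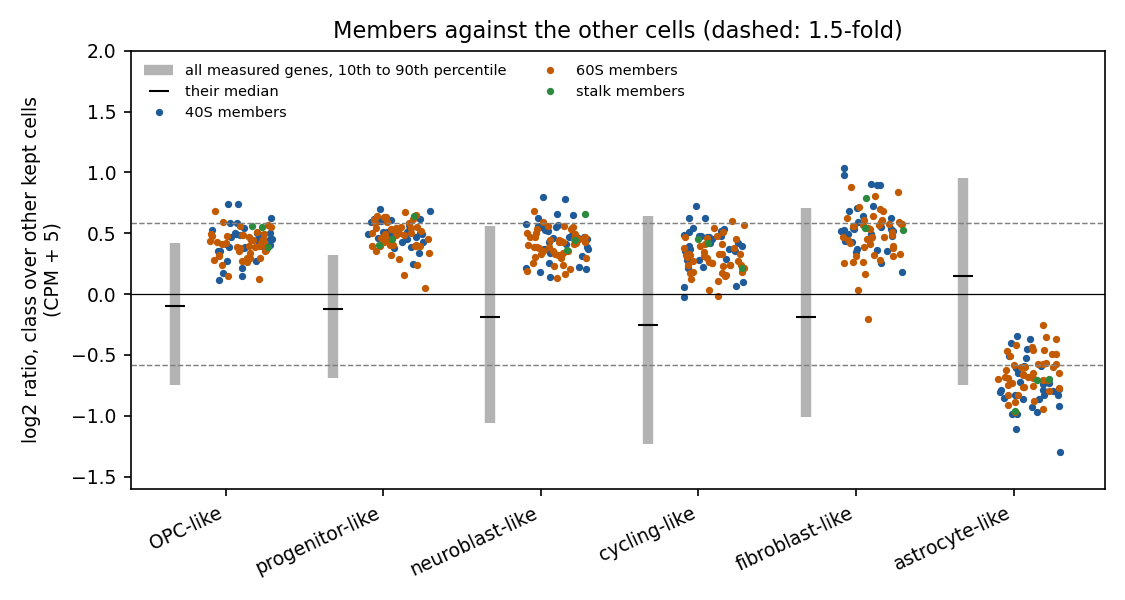
Log2 ratio of each of 79 measured members, class over all other kept cells (y axis, on CPM + 5), for the 6 main classes (x axis); colours give the subunit, grey bars the 10th to 90th percentile of all measured genes, black ticks their median and dashed lines 1.5-fold. In astrocyte-like cells all members lie below 0 around a median of -0.70, and in fibroblast-like cells they spread most widely around 0.53.

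In the other 5 classes most members had a ratio above 0 and most were not called. The ratio was above 0 for all 79 in OPC-like, progenitor-like and neuroblast-like cells, for 78 in fibroblast-like cells, with Rpl6l the exception, and for 77 in cycling-like cells, with Rps2 and Rpl38 the exceptions. Of all 13025 measured genes it was above 0 for 5221 in OPC-like, 4722 in progenitor-like and 4620 in neuroblast-like cells. It was above 0 for 4868 of them in fibroblast-like and 4277 in cycling-like cells. Rps2 held 536 CPM in cycling-like cells, against 545 CPM in the other cells, and Rpl38 935 CPM, against 942 CPM. In fibroblast-like cells 24 of 79 members were called higher (11.8% of all measured genes), in progenitor-like cells 20 (3.84%), in neuroblast-like cells 8 (12.4%), in OPC-like cells 6 (7.59%) and in cycling-like cells 4 (14.5%). In neuroblast-like, OPC-like and cycling-like cells these counts were thus near or below the share over all genes. No member was called lower in any of the 5, where 19.5%, 15.1%, 33.7%, 18.7% and 43.3% of all measured genes were. The median log2 ratio of members was 0.53 in fibroblast-like, 0.50 in progenitor-like, 0.43 in neuroblast-like, 0.43 in OPC-like and 0.33 in cycling-like cells, against -0.19, -0.12, -0.19, -0.10 and -0.25 over all measured genes.

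These calls rested on the astrocyte-like cells among the comparison cells. With them left out, 4 members were called higher in fibroblast-like cells (16.8% of 11633 measured genes) and 0 in each of the other 4 classes (10.5% in progenitor-like, 6.39% in neuroblast-like, 10.6% in OPC-like and 9.67% in cycling-like cells). No member was called lower in any of them, where 19.1% of all measured genes were in fibroblast-like, 12.9% in progenitor-like, 19.8% in neuroblast-like, 11.7% in OPC-like and 30.8% in cycling-like cells. The median log2 ratios were then 0.18 in fibroblast-like, 0.13 in progenitor-like, 0.04 in neuroblast-like, 0.06 in OPC-like and -0.09 in cycling-like cells. Among the 76 core members, all 76 had their lowest CPM of the 6 classes in astrocyte-like cells. The highest CPM fell in fibroblast-like cells for 38, in progenitor-like cells for 26, in neuroblast-like cells for 8 and in OPC-like cells for 4. No count of highest or lowest classes over all measured genes is given beside these. The ratio of highest to lowest class had a median of 1.91 and ran from 1.36 for Rpl38 to 2.71 for Rpsa.

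**Figure D3:**
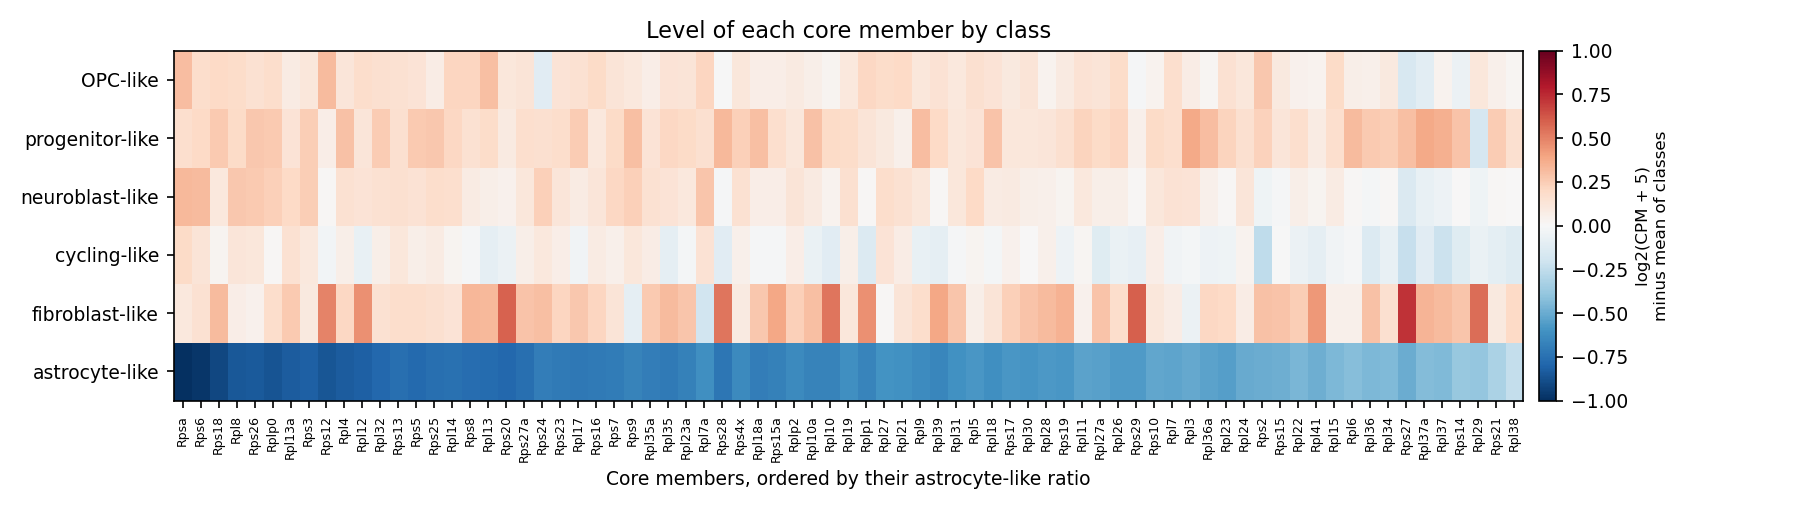
Level of 75 of the 76 core members (x axis, ordered by their astrocyte-like ratio) in 6 classes (y axis), as log2(CPM + 5) minus the mean of the 6 classes (colour). The astrocyte-like row is the lowest for all 75 shown, from Rpsa at the left to Rpl38 at the right, and the fibroblast-like row holds the highest single value, that of Rps27.

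Members moved by similar amounts: 78 of 79 lay within 1.5-fold of the member median in astrocyte-like cells, 78 in fibroblast-like cells and all 79 in each of the other 4 classes. In astrocyte-like cells the 10th and 90th percentiles of the log2 ratio were -0.93 and -0.45 over members. Over all measured genes they were -0.74 and 0.95, and genes of similar level were not compared. The members farthest from the median were the same at the low end of several classes and are given by subunit.

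Rpsa, a 40S protein also known as the laminin receptor precursor, was the member with the largest class difference. Astrocyte-like cells held 846 CPM (826 in set 1 and 901 in set 2), against 2087 CPM in the other cells. It was 2.47-fold lower, with log2 ratios of -1.28 in set 1 and -1.34 in set 2. In neuroblast-like cells it held 2182 CPM in set 1 and 2592 CPM in set 2, against 1314 CPM in the other cells, and it was called higher there and in cycling-like and OPC-like cells. The 5 classes other than the astrocyte-like one lay between 1963 CPM in fibroblast-like and 2288 CPM in neuroblast-like cells, all above the astrocyte-like value. Each is 1 pooled value per class, and the spread of Rpsa over single cells is not given.

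Rps6, the 40S protein phosphorylated by the S6 kinases downstream of mTOR, held 1683 CPM in set 1 and 1750 CPM in set 2 of astrocyte-like cells, against 3673 CPM in the other cells. It was 2.16-fold lower there. In neuroblast-like cells it held 4105 CPM in set 1 and 4352 CPM in set 2, against 2427 CPM in the other cells. Rpsa and Rps6 also stood farthest above the member median in cycling-like cells, by 0.39 and 0.30 on the log2 scale. These were single classes of 1 matrix, and the astrocyte-like cells were among their comparison cells.

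At the other end, Rpl38, a 60S protein whose loss in mice changes the axial skeleton, differed least. Astrocyte-like cells held 865 CPM, against 1033 CPM in the other cells (log2 ratio -0.25, and -0.26 in set 1 and -0.21 in set 2). Rps21, a 40S protein, held 738 CPM, against 938 CPM in the other cells. Both missed the 1.5-fold threshold in every main class. Rpl38 also stood lowest or near lowest against the member median in OPC-like (-0.28), neuroblast-like (-0.29) and cycling-like cells (-0.34). Rps27 and Rpl37a did so in OPC-like cells (-0.31 each) and in neuroblast-like cells (-0.29 and -0.26). Rps2 (-0.35) and Rpl37 (-0.30) joined Rpl38 at the low end in cycling-like cells.

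Other members led in single classes. In fibroblast-like cells Rps27, a zinc-finger 40S protein, held 3397 CPM in set 1 and 2256 CPM in set 2, against 1538 CPM in the other cells (log2 ratio 1.04). Its near-identical row Rps27rt, 100% identical over 341 bases, held 1087 CPM in fibroblast-like and 448 CPM in astrocyte-like cells. Rps20, a 40S protein of the head, held 3166 CPM in set 1 and 3181 CPM in set 2 of fibroblast-like cells, against 1605 CPM in the other cells. Rps28 followed with 1756 CPM, against 934 CPM in the other cells. Rpl7a and Rpl3 stood lowest against the fibroblast-like median (by -0.50 and -0.36), together with Rpl6l, whose 18 UMIs there give 19.1 CPM (interval 11.3 to 30.2), against 22.8 CPM in the other cells. Rpl6l (log2 ratio -0.21) was the member that lay more than 1.5-fold below the fibroblast-like median.

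In progenitor-like cells Rps28 (1514 CPM, against 929 CPM in the other cells), Rps18 (4225 CPM, against 2622 CPM) and Rpl4 (2830 CPM, against 1773 CPM) had the largest ratios. The smallest there belonged to Rpl29, Rpl6l and Rpl36al. In OPC-like cells Rps12 held 1875 CPM in set 1 and 1786 CPM in set 2, against 1104 CPM in the other cells, and it led with Rpsa and Rpl13 (4068 CPM, against 2526 CPM). In neuroblast-like cells Rpl8 (3729 CPM, against 2324 CPM) followed Rpsa and Rps6. None of these members lay more than 1.5-fold from the member median of its class.

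The stalk proteins bind elongation factors on the large subunit. Rplp0 held 1920 CPM in set 1 and 2241 CPM in set 2 of astrocyte-like cells, against 3897 CPM in the other cells, and its highest class was progenitor-like with 4371 CPM. Rplp1 held 1728 CPM in astrocyte-like cells, against 2798 CPM in the other cells, and Rplp2 held 1193 CPM, against 1953 CPM. Rpl5 and Rpl11 enter the ribosome with the 5S RNA and, when free, bind Mdm2. Rpl5 held 522 CPM in astrocyte-like cells, against 828 CPM in the other cells, and Rpl11 held 1809 CPM, against 2744 CPM. Both were called lower in astrocyte-like cells.

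The balance of the subunits shifted slightly. UMIs of 60S over 40S genes gave a ratio of 1.32 in astrocyte-like cells (1.33 in set 1 and 1.29 in set 2) and 1.33 in ependymal-like cells, against 1.21 in cycling-like and fibroblast-like, 1.22 in neuroblast-like and 1.26 in progenitor-like cells. Set 2 was below set 1 in each of these classes.

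Of the 6 paralogs 3 were measured: Rpl36al, Rps27l and Rpl6l. Rpl36al, an autosomal partner of the X-linked Rpl36a, held 816 CPM in OPC-like cells, against 540.5 CPM in the other cells, and was called higher. In astrocyte-like cells it held 422 CPM, against 718 CPM in the other cells, and was called lower. Rpl36a held 1117 CPM in astrocyte-like cells, against 1666 CPM in the other cells, and was not called. Rps27l, a p53 target and the partner of Rps27, held 779.9 CPM in astrocyte-like cells, against 1034 CPM, and its highest class was OPC-like with 1192 CPM. Rps27l was not called in any main class. Rpl6l held 19.4 CPM in astrocyte-like cells, against 26.6 CPM in the other cells, and its fibroblast-like level is given above.

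The pairs with a silent or near-silent second copy were Rpl3 (2988 CPM), Rpl10 (933 CPM) and Rpl39 (1359 CPM). Rpl10 and Rpl39 were called lower in astrocyte-like cells (726 CPM, against 1185 CPM, and 1067 CPM, against 1712 CPM) and higher in fibroblast-like cells. Rpl3 was called only in progenitor-like cells (4553 CPM, against 2918 CPM). Rps4x held 2021 CPM in astrocyte-like cells, against 3363 CPM, and was called lower.

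Ribosomal proteins and their relatives whose names fall outside the rule were set beside the members. Rps3a1, the mouse gene of the 40S protein eS1, held 1607 CPM in astrocyte-like cells, against 2973 CPM in the other cells. Fau, made as a fusion with a ubiquitin-like sequence, held 1112 CPM in astrocyte-like cells, against 1691 CPM. Gnb2l1, the scaffold protein also called RACK1, held 525 CPM, against 1041 CPM. All 3 were called lower in astrocyte-like cells. Rpl22l1, the partner of Rpl22, held 344 CPM in astrocyte-like cells, against 629 CPM, and was called lower there and higher in cycling-like (666 CPM) and fibroblast-like cells (861 CPM). Rpl22 held 640.4 CPM, against 911 CPM, and was not called in any main class. Rpl7l1, a relative of Rpl7, held 161 CPM in neuroblast-like cells, against 95.5 CPM, and was called higher there and in cycling-like cells (143 CPM). In astrocyte-like cells Rpl7l1 held 78.9 CPM, against 129 CPM, and was called lower. In fibroblast-like cells it held 73.2 CPM, against 102.5 CPM, and was not called (log2 ratio -0.46, with -0.51 in set 1 and -0.25 in set 2). Its relative Rpl7 (1620 CPM in astrocyte-like cells, against 2427 CPM) was not called there.

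Other genes of translation were set beside the members. Ribosome biogenesis factors make and assemble the subunits in the nucleolus. In astrocyte-like cells 28 of 43 were called lower and 0 higher (median log2 ratio -0.64), where 19% of all measured genes were called lower and 35.6% higher. In neuroblast-like cells 27 were called higher and 0 lower (median 0.65), where 12.4% of all measured genes were higher and 33.7% lower; of members, 8 of 79 were higher. In cycling-like cells 16 were higher and 1 lower (14.5% and 43.3% of all measured genes). In OPC-like cells 14 were higher (7.59%) and in progenitor-like cells 6 (3.84%). In fibroblast-like cells 0 were higher and 5 lower (median -0.10), against 11.8% and 19.5% of all measured genes, and the members' median there was 0.53. Npm1, the histone-binding nucleolar chaperone nucleophosmin, held 368 CPM in astrocyte-like cells, against 982 CPM in the other cells, and 1124 CPM in neuroblast-like cells. Ncl, nucleolin, held 389 CPM in astrocyte-like cells, against 641 CPM. Polr1d, a subunit of RNA polymerases I and III, held 305 CPM in astrocyte-like cells, against 368 CPM, and was called only in OPC-like cells (499 CPM).

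**Figure D4:**
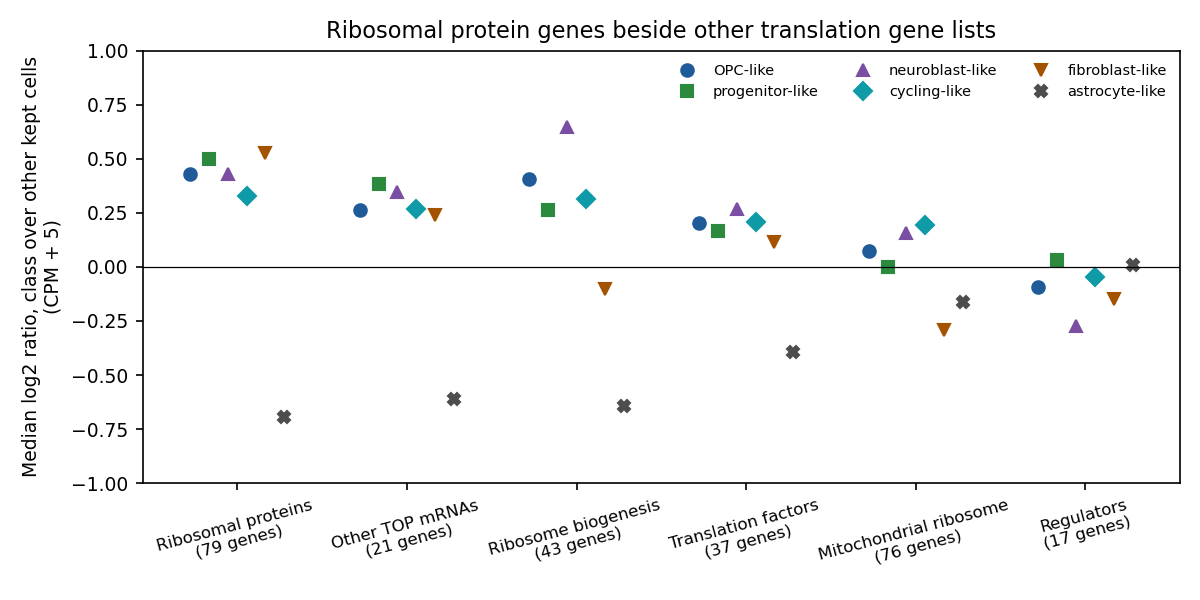
Median log2 ratio, class over other kept cells (y axis, on CPM + 5), of 6 gene lists (x axis, number of measured genes) in 6 classes (symbols). Astrocyte-like cells lie lowest for the ribosomal proteins (-0.70), the other TOP mRNAs (-0.61), ribosome biogenesis (-0.64) and translation factors (-0.39); fibroblast-like cells lie at 0.53 for ribosomal proteins and -0.10 for biogenesis.

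Of 37 measured translation factors, 9 were called lower and 0 higher in astrocyte-like cells (median log2 ratio -0.39). Over all measured genes 19% were lower there and 35.6% higher, so the count of lower factors was near that share. Eef1a1, the elongation factor that carries tRNA to the ribosome, held 3057 CPM in astrocyte-like cells, against 4301 CPM, and was called in no main class. Eif1 held 876 CPM in astrocyte-like cells, against 1230.2 CPM, and was not called either. Eef2, which moves the ribosome along the mRNA, was called higher in progenitor-like cells (1537 CPM).

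Of 21 other genes listed as having TOP mRNAs, 13 were called lower and 1 higher in astrocyte-like cells (median log2 ratio -0.61), beside the same 19% and 35.6% of all measured genes. The one called higher was Vim, an intermediate filament gene of glia, with 4173 CPM, against 1825 CPM. Ccnd2, cyclin D2, held 315 CPM in astrocyte-like cells, against 3222 CPM, and 6268 CPM in neuroblast-like cells. Neither Vim nor Ccnd2 encodes a part of the translation machinery.

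The mitochondrial ribosome, is built from a separate set of nuclear genes. Of 76 measured Mrpl and Mrps genes, the median log2 ratio was -0.16 in astrocyte-like cells and -0.29 in fibroblast-like cells, where 15 were called lower and 1 higher. Over all measured genes 19.5% were lower and 11.8% higher in fibroblast-like cells, with a median of -0.19, so the count of lower genes was near that share. In astrocyte-like cells 8 were called lower and 1 higher, beside 19% and 35.6%. Mrps33, for example, held 242 CPM in fibroblast-like cells, against 543 CPM in the other cells. Mrps14 and Mrpl28 held 352 CPM and 204 CPM in fibroblast-like and 542 CPM and 374 CPM in astrocyte-like cells.

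Regulators showed no common direction, with 2 of 17 called higher and 3 lower in astrocyte-like cells (median log2 ratio 0.01), beside 35.6% and 19% of all measured genes. Mtor held 47.1 CPM in astrocyte-like cells, against 25.9 CPM in the other cells, and Rptor, its partner in complex 1, held 29.0 CPM, against 14.9 CPM; both were called higher. Mycn, a transcription factor that drives ribosome production, held 1.87 CPM in astrocyte-like cells, against 22.2 CPM, and was called higher in progenitor-like (63.8 CPM), neuroblast-like (26.8 CPM) and cycling-like cells (24.0 CPM). Trp53, which free Rpl5 and Rpl11 stabilise through Mdm2, held 74.7 CPM in astrocyte-like cells, against 149.7 CPM, and was called higher in neuroblast-like (216 CPM) and cycling-like cells (165 CPM).

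Myc, a relative of Mycn, was called higher in OPC-like (24.2 CPM) and fibroblast-like cells (10.6 CPM) and lower in neuroblast-like (1.38 CPM) and cycling-like cells. Eif4ebp1, a translation repressor that mTOR switches off, held 64.6 CPM in astrocyte-like cells, against 117 CPM, and was called higher in fibroblast-like cells (383 CPM). Rictor, of mTOR complex 2, was called higher in fibroblast-like cells (44.6 CPM) and lower in neuroblast-like (3.86 CPM) and cycling-like cells (4.19 CPM). Calls in 1 or 2 classes were also made for Rps6kb1 (higher in cycling-like cells, 72.3 CPM), Eif4ebp2 (higher in neuroblast-like cells, 11.6 CPM), Tsc2 (lower in neuroblast-like cells, 13.0 CPM) and Mdm2 and Rps6kb2 (lower in fibroblast-like cells, 25.5 CPM and 12.7 CPM).

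The genes most like the summed members were sought by Pearson correlation of log2(CPM + 5) over the 12 clusters, which share libraries, depth and scaling. The 10 most alike were Rps3a1 (r = 0.98), Gm9493, Gm10709, Gnb2l1, Gm11808, Wdr89, Gm10036, Nme2, Gm2000 and Rpl22l1 (r = 0.93). Of these, 4 were near-identical copies of a member: Gm9493 of Rps7 (99.5%), Gm10709 of Rpl29 (99.2%), Gm10036 of Rpl11 (99.3%) and Gm2000 of Rpl35 (99.6%), and Rps3a1, Gnb2l1 and Rpl22l1 are the ribosomal or ribosome-bound proteins named above. This likeness is a description over clusters and carries no test.

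Copies are frequent for this gene family. Against the GENCODE M21 transcripts, 72 of 82 members had at least 1 annotated gene at 95% identity or more over most of its length, 571 such genes in all, with a median of 5 and up to 59 (Rpl21) per member. Only 36 of the 571 were rows of the matrix, belonging to 25 members. Gm8730, 98.7% identical to Rplp0, held 427 CPM beside the 2861 CPM of Rplp0, and Gm10036 held 406 CPM beside the 2232 CPM of Rpl11. How reads matching several copies were assigned is stated in no source used here, so the levels of these members are uncertain. With the UMIs of copy rows added to their member, 57 members were again called lower in astrocyte-like cells and 23 higher in fibroblast-like cells. No share over all measured genes is given for that setting.

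The 2 barcode sets were nearly alike for most members and differed for a few. Of 79 members with at least 500 UMIs, 63 lay within 1.2-fold between the sets, with a median ratio of set 2 over set 1 of 1.03. Of the 79, 6 (Rpl35, Rps2, Rps29, Rpl13, Rpl38 and Rps28) were at least 1.5-fold lower in set 2 and 0 were higher, where 1.51% of 7211 genes were lower and 0.0971% higher. Rpl35 held 145 CPM in set 2 and 317 CPM in set 1, and Rps2 held 306 CPM in set 2 and 630.2 CPM in set 1. Rps29 held 739 CPM in set 2 and 1284 CPM in set 1, Rpl13 1731 CPM and 2935 CPM, Rpl38 667 CPM and 1041 CPM, and Rps28 696 CPM and 1048 CPM. The ratio of set 2 over set 1 for Rpl35 ran from 0.40 to 0.50 over the 6 main classes and that for Rps2 from 0.42 to 0.52, so the direction was the same in each. The sets cannot be tied to a treatment, and treatment, library and sequencing run cannot be told apart.

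**Figure D5:**
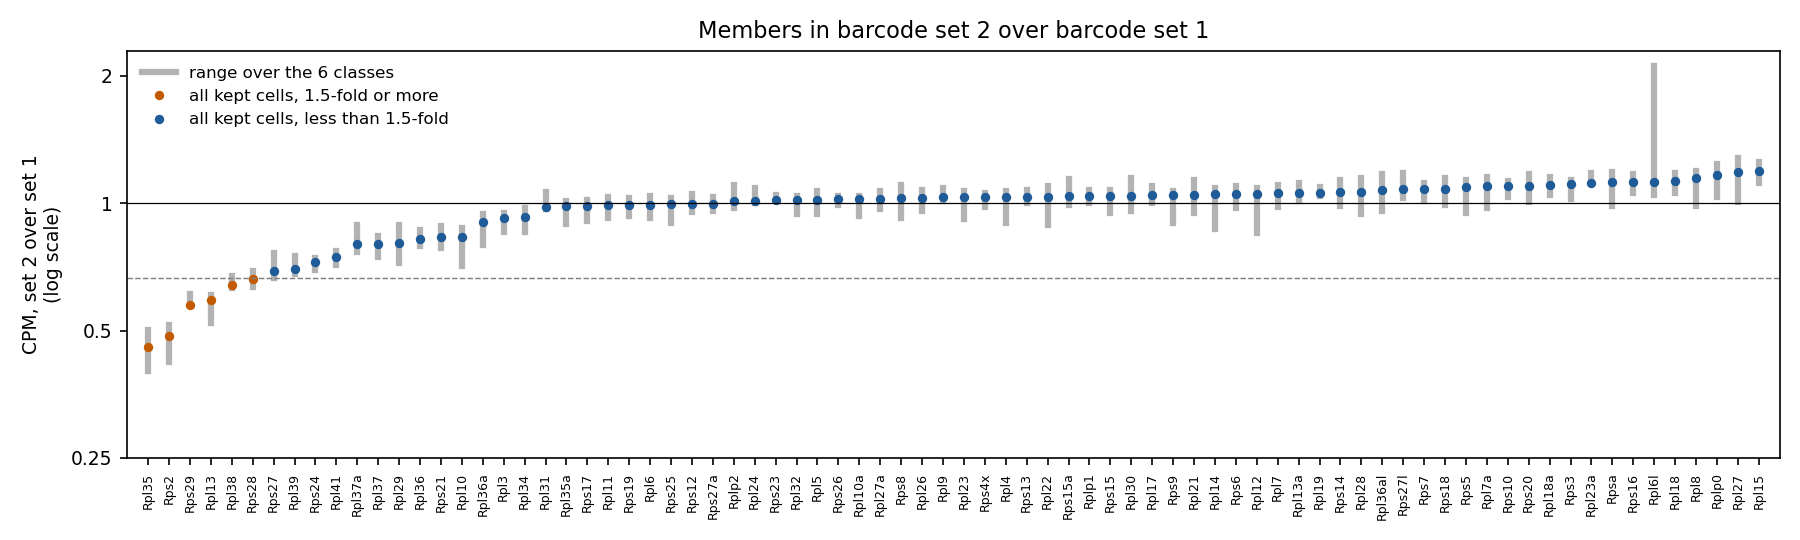
CPM of 78 of the 79 members in barcode set 2 over barcode set 1 (y axis, log scale), ordered by that ratio (x axis); points are all kept cells, grey bars the range over the 6 main classes, and the dashed line is 1.5-fold lower in set 2. The 6 members from Rpl35 (0.458) to Rps28 (0.664) lie at or below the line, and most others lie near 1.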

How the data were processed

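Single-cell RNA was captured with the Chromium 3′ kit v1 (10x Genomics), per the labels, and Cell Ranger 2.1.1 and the mm10 build are named in the submitters' processing notes; no source used here says whether library depths were equalised. The deposited values are whole UMI counts per gene and barcode: 41462326 UMIs, 30517055 in set 1 and 10945271 in set 2. Excluded were 635 barcodes with fewer than 500 genes, 912 above 10% mitochondrial UMIs and the doublets called by Scrublet (scanpy 1.11.5) within each set: 291 of 9869 cells in set 1 (2.95%, against 7.90% expected) and 12 of 3409 in set 2 (0.352%, against 2.73% expected), leaving 9578 and 3397 cells. The rates were below those expected, and doublets among the kept cells were not measured.

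Cells were clustered on 2000 variable genes, 30 principal components, 15 neighbours and Leiden resolution 0.5 (leidenalg 0.10.2). Clusters were named from marker lists (at least 3 markers at 2-fold, and no more leading genes of another class). CPM carry exact Poisson intervals and shares Clopper-Pearson intervals. The sums and calls were tested on simulated counts. Members, lists and the rule for named genes (5 highest and 5 lowest members, 3 extremes per class, paralogs, named subunits, 3 genes per list, called regulators, 10 most alike genes) were chosen with earlier results of these data known. Lists were compiled by hand, the TOP list not from sequence; Gas5 and Snhg1 of it and Rps4l and Rpl26l1 were not found as rows, and Rack1 is counted under its row name Gnb2l1. Promoters are from RefSeq (GRCm38.p6) and positions from GENCODE M21 (GRCm38). A few genes under this rule are not reported here, in text or figures. Alternatives varied filters, clustering, thresholds, scaling and comparison cells.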

Additional observations from a re-analysis of the deposited data

Results flagged for a closer look

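Barcodes left out of the comparisons carried unusual ribosomal protein shares. The 495 barcodes with fewer than 500 genes and at most 10% mitochondrial UMIs held 38.3% of their UMIs in members, against 15.3% in the kept cells. The 912 barcodes over 10% mitochondrial UMIs held 8.46%. Rows named for pseudogenes of members with a -ps ending, which the rule leaves out, held 11346 UMIs in the kept cells over 13 detected of 16 rows.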

How the results depend on the processing

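No paired analysis was possible because barcodes could not be tied to either of the 2 labelled libraries, and with 1 library per label no replicate could be left out. The astrocyte-like share was the lowest among the main classes named under each alternative that gave it; no progenitor-like class was named without the cell filter or at resolution 0.3. Without the cell filter the shares were 20.8% (OPC-like), 21.7% (fibroblast-like) and 12.9% (astrocyte-like), and 10 members were higher in OPC-like and 1 lower in astrocyte-like cells. With called doublets kept, they were 21.9% (progenitor-like), 20.3% (neuroblast-like), 18.2% (cycling-like), 21.7% (fibroblast-like) and 11.9% (astrocyte-like), with 1 member higher in cycling-like cells. With members allowed as candidates for the 2000 clustering genes, of which 0 were chosen, they were 20.2% (OPC-like), 20.9% (progenitor-like), 19.97% (neuroblast-like) and 11.7% (astrocyte-like), with 11 members higher in progenitor-like cells. Resolution 0.3 gave 21.3% (neuroblast-like, 23 members higher) and 11.9% (astrocyte-like); 0.8 gave 21.2% (progenitor-like), 17.4% (neuroblast-like, 0 higher), 19.1% (cycling-like) and 11.4% (astrocyte-like). The cause of these changes was not tested. For the member counts of this paragraph no share over all measured genes is given.

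In the order OPC-like, progenitor-like, neuroblast-like, cycling-like, fibroblast-like and astrocyte-like, shares were 20.9%, 22.3%, 20.7%, 19.2%, 22.4% and 12.4% without mitochondrial genes, 19.97%, 21.2%, 19.97%, 18.4%, 21.2% and 11.8% as means of cells, and 20.1%, 21.4%, 19.97%, 18.4%, 21.3% and 11.9% with cells thinned to 1000 UMIs. Set 1 alone gave 21.6% (progenitor-like), 19.98% (neuroblast-like), 18.7% (cycling-like), 22.2% (fibroblast-like) and 11.9% (astrocyte-like), and set 2 alone 21.2%, 20.6%, 18.9%, 20.7% and 11.8%.

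Members called higher in the first 5 of these classes numbered 62, 73, 62, 44 and 67 at the lower fold threshold tried, 0, 0, 0, 0 and 1 at 2-fold (2 lower in astrocyte-like cells), 20, 48, 24, 11 and 53 with member UMIs left out of the total, and 0, 0, 0, 0 and 4 without astrocyte-like comparison cells. Leaving the Lgals1 and hypoxia-gene clusters out of the comparison cells, an alternative chosen after seeing the data like the addition of copy rows, gave 12 in OPC-like and 13 in neuroblast-like cells. For these member counts no share over all measured genes is given, so they cannot be set against a background. The setting without astrocyte-like comparison cells is the exception, and its shares are given with the calls above. The log2 ratio of Rpl6l in progenitor-like cells was -0.12 in set 1 and 0.71 in set 2, from 42 UMIs in all. Values of Rpl29 and Rpl6l per class are limited by depth.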
